A study of Mus musculus with 2 samples.

Results

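MLT1 elements, the most ancient branch of the mammalian apparent LTR retrotransposons (MaLR), were examined in a ChIP-seq experiment on the histone mark H3.3S31ph in mitotic mouse ES cells. Members were taken by name, as every repeat type beginning with MLT1, MST or THE1 in the deposited repeat tables. This gave 32 of 952 repeat types, all of them MLT1, and no MST or THE1 row was found in the tables used here, so these 2 names have no values and MST could not be set against MLT1. Of the 32 members, 28 are long terminal repeats (LTRs) and 4 are internal sequences, whose names end in -int. All 32 had at least 100 input reads, the minimum used for analysis, as did 704 of the 952 repeat types.

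The samples were 1 H3.3S31ph ChIP sample and, as its control, 1 input sample, sheared chromatin sequenced without an antibody. Both came from wild-type ES cells of the strain 129S1/SvImJ that had been exposed to 9 µM RO-3306, which blocks the cell cycle kinase CDK1, for 12 hours and harvested as mitotic cells 11 hours after its removal, so there is no interphase or untreated group. The tables hold repeats and no genes, so the cell type could not be checked against marker genes. The libraries were run on 2 lanes, which are repeat runs of 1 library pair and not replicates. Summed over lanes, the tables held 12235477 ChIP reads and 8856751 input reads. Each ratio below divides the share that a repeat type takes of the ChIP reads in the tables by its share of the input reads there, and each interval is a 95% interval of counting error. With 1 sample per group there is no replicate check of any difference and no p-value is given.

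LTR retrotransposons are copies of retrovirus-like elements. Their LTRs carry the promoter and the polyadenylation signal, and the internal part lies between the LTRs of a complete copy. MaLR elements are non-autonomous relatives of the class III (ERVL) retroviruses: they lack their own enzymes and are thought to have been moved by those of ERVL elements. THE1, MST and MLT1 name progressively older MaLR groups, and the later letters among MLT1 subtypes broadly stand for older subfamilies, whose copies are inactive and found across placental mammals. Recombination between the paired LTRs removes the internal part, so most surviving copies are single LTRs. H3.3 is the histone H3 variant that can be deposited outside of DNA replication. Its serine 31, which canonical H3 lacks, is phosphorylated in mitosis, and in mouse ES cells the mark is known from telomeric chromatin.

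MLT1 elements held a smaller share of the ChIP than of the input. Together they took 208384 ChIP reads and 193252 input reads, or 1.70% of the ChIP reads and 2.18% of the input reads in the tables, a pooled ratio of 0.781 (0.776 to 0.785). All 32 members had an interval below 1 and 0 had one above 1. This position was common in the tables, since 79.5% of the 704 analysed repeat types lay below 1 and 7.81% above it. Because shares sum to the whole, an abundant enriched repeat lowers every other ratio, and the median repeat of the 704 had a ratio of 0.805. The median log2 ratio of the members was -0.37, against -0.31 for all analysed repeats. A lower share can come from enrichment elsewhere in the tables, from fewer copies that carry the mark or from less of it on each copy. These data cannot tell these apart.

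**Figure D1:**
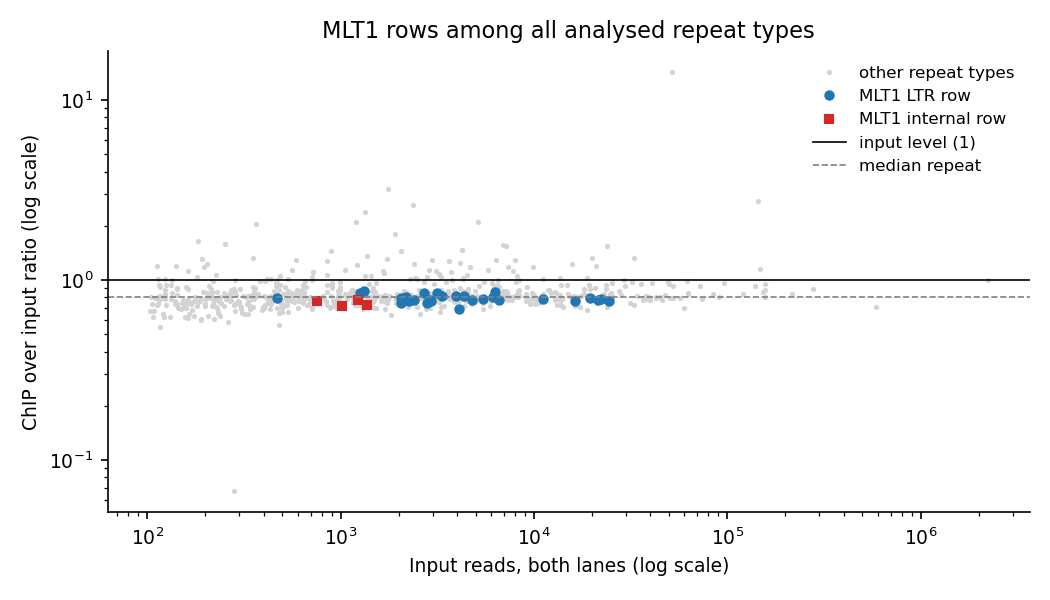
Ratio of H3.3S31ph ChIP over input (log axis) against input reads over both lanes (log axis) for the 704 analysed repeat types; blue circles are the 28 MLT1 LTR rows, red squares the 4 MLT1 internal rows and grey dots all others, with the input level (solid) and the median repeat (dashed, 0.805). The MLT1 rows lie in a narrow band from 0.686 to 0.865, below the input level.

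Against the median repeat the members lay slightly low. An interval below the median repeat was found for 11 of 32 members (34.4%), against 19.2% of the 704 analysed repeat types, and an interval above it for 1 member, MLT1J, against 27.3%. Members were better covered than most, with a median of 3035 input reads against 1420.5 for all analysed repeats, and a better-covered repeat has a narrower interval. Among repeats with at least 1000 input reads, whose own median repeat had a ratio of 0.814, 17 of 30 members lay below and 1 above, against 31.3% and 33.7% of 406 repeat types. By point value, 23 members lay below the median repeat and 9 above it. Distances were small: only MLT1E1, MLT1H-int and MLT1J-int lay at least 1.1-fold below the median repeat, where 14.8% of all analysed repeats did, and 0 lay at least 1.1-fold above it, against 22.3%. Of the members, 25 lay between the 25th and the 75th percentile of all analysed repeats (ratios of 0.761 and 0.869), 7 lay lower and 0 higher.

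**Figure D2:**
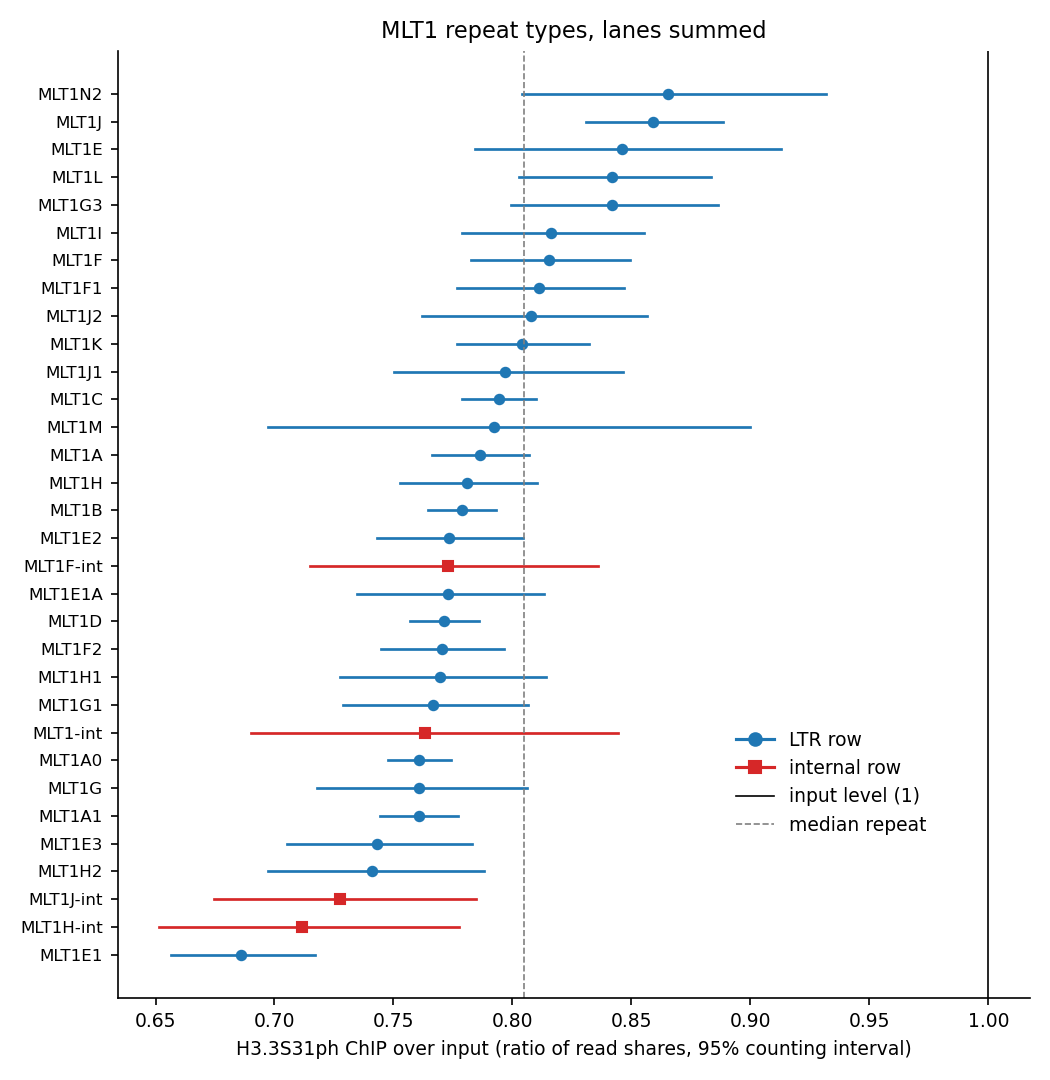
Ratio of H3.3S31ph ChIP over input (ratio of read shares) for each of the 32 MLT1 repeat types, ordered by ratio, with 95% intervals of counting error; blue circles are LTR rows and red squares internal rows. All intervals end below the input level of 1 (solid line), and most cross the median repeat (dashed line).

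The subtypes A to D supplied most of the reads. Their 6 LTR rows held 59.2% of the members' ChIP reads and 59.7% of their input reads, and they had the narrowest intervals. MLT1A0, the most abundant member, had 25788 ChIP reads and 24537 input reads, a ratio of 0.761 (0.748 to 0.774). MLT1B had 23893 ChIP reads and 22207 input reads, a ratio of 0.779 (0.765 to 0.793). For MLT1D the counts were 22961 in the ChIP and 21548 in the input, a ratio of 0.771 (0.757 to 0.786). All 6 rows thus sat between 0.761 and 0.794, below the median repeat by point value, and 4 of them had an interval below it. MLT1C had 21474 ChIP reads and 19570 input reads, and its ratio of 0.794 (0.779 to 0.810) was the highest of the 6. MLT1A1 stood at 0.761 (0.744 to 0.777) from 17124 ChIP reads and 16297 input reads. MLT1A, with 12159 ChIP reads and 11193 input reads, had 0.786 (0.766 to 0.807). The intervals of MLT1C and MLT1A included the median repeat.

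The highest ratios belonged mostly to subtypes with late letters. MLT1N2 had 1578 ChIP reads and 1320 input reads, a ratio of 0.865 (0.804 to 0.932). MLT1J, with 7481 ChIP reads and 6303 input reads, stood at 0.859 (0.831 to 0.889). MLT1J is the only member whose interval lay wholly above the median repeat, at a log2 distance of 0.094. MLT1E, with 1474 ChIP reads and 1261 input reads, reached 0.846 (0.784 to 0.913). MLT1L had 3657 ChIP reads and 3144 input reads, a ratio of 0.842 (0.803 to 0.883). MLT1G3 had the same ratio to 3 digits, 0.842 (0.800 to 0.887), from 3159 ChIP reads and 2716 input reads. MLT1I came next at 0.816 (0.779 to 0.855), from 3769 ChIP reads and 3343 input reads. The intervals of these 6 overlapped one another, so their order is not resolved at this depth.

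The lowest ratio was that of MLT1E1, an LTR row, with 3884 ChIP reads and 4098 input reads, a ratio of 0.686 (0.656 to 0.717). It is the only LTR row with fewer ChIP than input reads. Its ratio was 0.695 in lane 1 and 0.677 in lane 2. The internal rows MLT1H-int and MLT1J-int came next, followed by MLT1H2, with 2100 ChIP reads and 2051 input reads (ratio 0.741, 0.697 to 0.788), and MLT1E3, with 2878 ChIP reads and 2803 input reads (ratio 0.743, 0.705 to 0.783). The interval of each of these later rows overlapped that of MLT1E1. The highest member ratio was 1.26 times the lowest.

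Grouped by the first letter after MLT1, the 28 LTR rows formed 14 letters, 8 of them with a single row. Pooled ratios ran in the order N (0.865), L (0.842), J (0.836), I (0.816), K (0.804), C (0.794), F (0.794), M (0.792), G (0.791), B (0.779), D (0.771), H (0.770), A (0.766) and E (0.751). In 0 of the 13 neighbouring steps of this order did the 95% interval of the ratio between letters exclude 1. Further apart, letters did differ: the interval excluded 1 for 39 of 91 pairs, and for 10 of them when intervals were widened for all 91 pairs. Of these 10, 5 involved J, which was above A, B, D, E and H, and 5 involved E, which was below C, F, J, L and N, the pair of J and E being counted in both. The remaining pair was L above A, by a factor of 1.099 (1.046 to 1.154). J exceeded A by a factor of 1.092 (1.061 to 1.123) and E by 1.114 (1.076 to 1.152). Letter M rested on 511 ChIP reads and 467 input reads, and its interval (0.697 to 0.900) spanned the whole range of the pooled values.

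**Figure D3:**
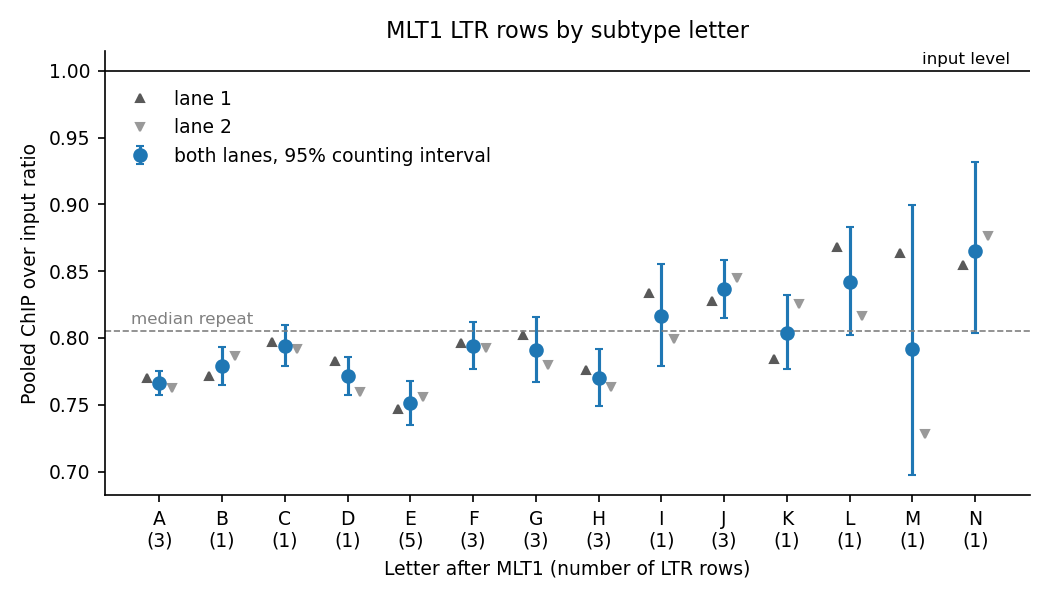
Pooled ratio of H3.3S31ph ChIP over input for the MLT1 LTR rows of each subtype letter, with the number of rows in brackets; blue circles are both lanes with 95% intervals of counting error and triangles the single lanes. Letters I, J, L and N lie above the median repeat (dashed) and the other 10 below it, and all 14 lie below the input level (solid).

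Pooled together, the early letters A to D had a lower ratio than the later ones, though this did not hold letter by letter. The lowest letter, E, is among the later ones, and the rows of F to H pooled at 0.786 (0.774 to 0.798). LTR rows of the letters A to D, with 123399 ChIP reads and 115352 input reads, had a pooled ratio of 0.774 (0.768 to 0.781). Those of the letters E to N, 22 rows with 80498 ChIP reads and 73528 input reads, had 0.792 (0.785 to 0.800). The early letters were thus lower by a factor of 0.977 (0.965 to 0.990), which was 0.980 in lane 1 and 0.974 in lane 2, with intervals below 1 in both. A contrast chosen after the values were seen, the 8 rows of the letters I to N against those of A to D, gave pooled ratios of 0.827 (0.813 to 0.841) and 0.774. The late letters were higher by a factor of 1.068 (1.048 to 1.088), or 1.059 (1.034 to 1.085) without the 3 J rows. Across the 14 letters Spearman's rho between position in the alphabet and pooled ratio was 0.697, and across the 28 LTR rows it was 0.476. Letters share 1 library pair and differ in depth, and position also went with fewer input reads (rho -0.615 across the 28 rows). Between input reads and ratio rho was -0.188. The base composition of the subtypes was not available here, and its part in the difference between letters was not tested.

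Rows that share a letter also differed from each other. Of 25 pairs of LTR rows within a letter, the 95% interval of their ratio excluded 1 for 11, and for 3 when widened for all 25 pairs. These 3 pairs all set MLT1E1 below another E row: below MLT1E, which was higher by a factor of 1.233 (1.130 to 1.346), below MLT1E2, higher by 1.127 (1.063 to 1.196), and below MLT1E1A, higher by 1.127 (1.054 to 1.205). The E rows MLT1E2 and MLT1E1A had nearly equal ratios, both 0.773, from 5097 ChIP reads and 4771 input reads and from 3099 ChIP reads and 2902 input reads. Letter E as a whole lay below the other LTR rows by a factor of 0.958 (0.936 to 0.980), a contrast chosen after the values were seen. Without MLT1E1 this factor was 0.987 (0.962 to 1.01), an interval that included 1. MLT1E1 is the lowest row, so its removal raises the value of the letter in any case. The other 4 E rows pooled at 0.774 (0.755 to 0.794), still below the median repeat. In letter G, MLT1G3 stood above MLT1G1 by a factor of 1.098 (1.022 to 1.180) and above MLT1G by 1.107 (1.025 to 1.196), neither of which held when widened.

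The spread among LTR rows exceeded counting error. Chi-square of the 28 rows against 1 common ratio was 138.1 on 27 degrees of freedom, or 5.11 per degree of freedom, and 3.98 without MLT1E1. The SD of their log2 ratios was 0.072, where counting error alone gives 0.038. The 4 internal rows did not spread beyond counting error, chi-square being 2.52 on 3 degrees of freedom.

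Internal sequences had lower ratios than LTRs. The 28 LTR rows together had 203897 ChIP reads and 188880 input reads, a pooled ratio of 0.781 (0.777 to 0.786). The 4 internal rows had 4487 ChIP reads and 4372 input reads, which is 2.15% of the members' ChIP reads and 2.26% of their input reads, and a pooled ratio of 0.743 (0.712 to 0.775). LTR rows were higher by a factor of 1.052 (1.008 to 1.097). This difference was near the limit of the depth: the factor was 1.038 (0.978 to 1.102) in lane 1 and 1.065 (1.004 to 1.130) in lane 2, and with both lanes its interval reached below 1 without MLT1H-int (1.039, 0.990 to 1.090) or without MLT1J-int (1.042, 0.991 to 1.096).

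The lettered internal rows carry the letter of an LTR subtype, F, H or J. MLT1J-int had 1377 ChIP reads and 1370 input reads, a ratio of 0.728 (0.675 to 0.785), against which the 3 J LTR rows, at 0.836 (0.815 to 0.859), were higher by a factor of 1.150 (1.062 to 1.244). The direction held in both lanes, at 1.109 (0.992 to 1.240) in lane 1 and 1.192 (1.066 to 1.334) in lane 2. MLT1H-int had 996 ChIP reads and 1013 input reads, a ratio of 0.712 (0.651 to 0.778), and the 3 H LTR rows stood at 0.770, higher by a factor of 1.082 with an interval that included 1 (0.987 to 1.186). MLT1H-int was the only member whose lanes differed by more than the 95% counting interval, at 0.783 in lane 1 and 0.647 in lane 2, so the H factor was 0.991 in lane 1 and 1.179 in lane 2. For F the difference was not detectable at this depth: MLT1F-int had 1320 ChIP reads and 1236 input reads, a ratio of 0.773 (0.715 to 0.836), and the 3 F LTR rows were higher by a factor of 1.027 (0.948 to 1.114). The unlettered MLT1-int had 794 ChIP reads and 753 input reads, a ratio of 0.763 (0.690 to 0.844). A further row, MLT-int, falls just outside the naming rule and was looked at after the values were seen. It had 2622 ChIP reads and 2769 input reads, a ratio of 0.685 (0.650 to 0.723). By point value this was lower than any of the 4 internal members. Its interval overlapped that of each, which does not show that the ratios are alike. Factors between MLT-int and these rows were not computed.

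**Figure D4:**
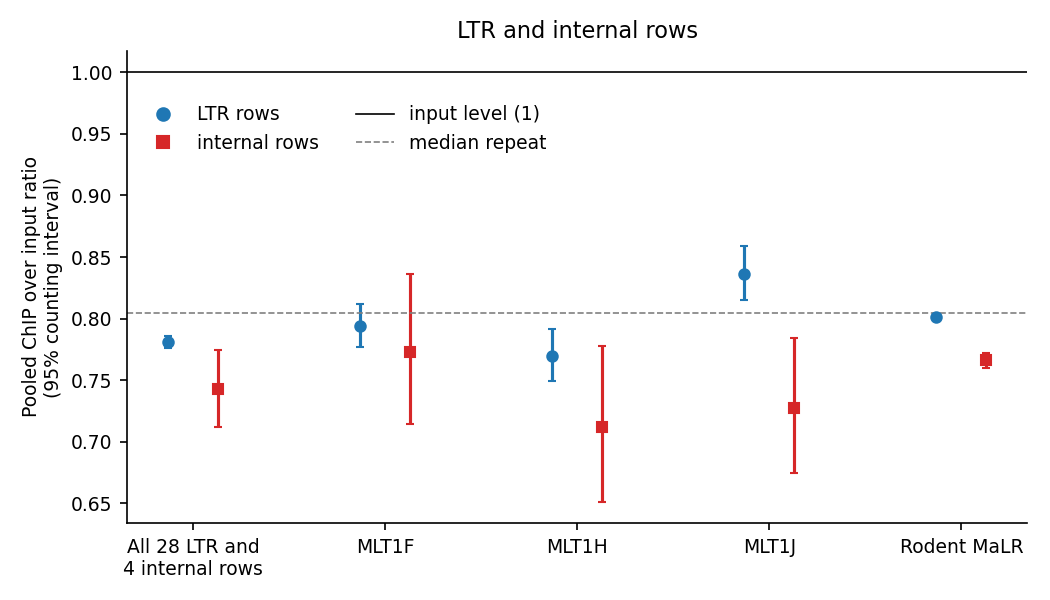
Pooled ratio of H3.3S31ph ChIP over input for LTR rows (blue circles) and internal rows (red squares), with 95% intervals of counting error, for all MLT1 rows, for the letters F, H and J with their own internal rows, and for the rodent MaLR elements. The internal value is below the LTR value in each of the 5 pairs, and the intervals of the F and the H pair overlap.

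Rodent MaLR elements (MT and ORR1 rows), the younger relatives in the mouse genome, showed an LTR-to-internal factor of like size. Their 21 LTR rows had a pooled ratio of 0.802 and their 7 internal rows one of 0.766, a factor of 1.046 (1.037 to 1.055). The MLT1 factor over the rodent factor was 1.005 (0.9632 to 1.0496), an interval that includes 1 and bounds the difference at these depths.

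As a whole the MLT1 rows were lower than the rodent MaLR and than MIR and L2, and higher than MLT2. Against the 28 rodent MaLR rows, with 1135247 ChIP reads, 1030702 input reads and a pooled ratio of 0.797, the MLT1 rows were lower by a factor of 0.979 (0.972 to 0.986). Against the 10 MLT2 rows, ancient LTRs of the ERVL family with 28067 ChIP reads and 27098 input reads, they were higher by a factor of 1.041 (1.023 to 1.060), since MLT2 had 0.750 (0.737 to 0.762). Against the 5 rows named MIR or L2, old non-LTR retrotransposons with 236561 ChIP reads and 204187 input reads, they were lower by a factor of 0.931 (0.923 to 0.939), since MIR and L2 had 0.839 (0.834 to 0.844). Rows with an interval below the median repeat numbered 11 of 32 for MLT1, 8 of 28 for the rodent MaLR, 5 of 10 for MLT2 and 0 of 5 for MIR and L2. Of all analysed repeats, 19.2% lay below it. Rows with an interval above it numbered 1, 5, 0 and 4 in the same order. Median input reads were 3035, 26827, 2682 and 39484. Depth sets the width of an interval, so these counts are not comparable between lists. The rows of MLT1 overlapped in range with those of each of the other lists, running from 0.686 to 0.865 for MLT1, 0.746 to 0.849 for the rodent MaLR, 0.713 to 0.804 for MLT2 and 0.805 to 0.875 for MIR and L2.

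**Figure D5:**
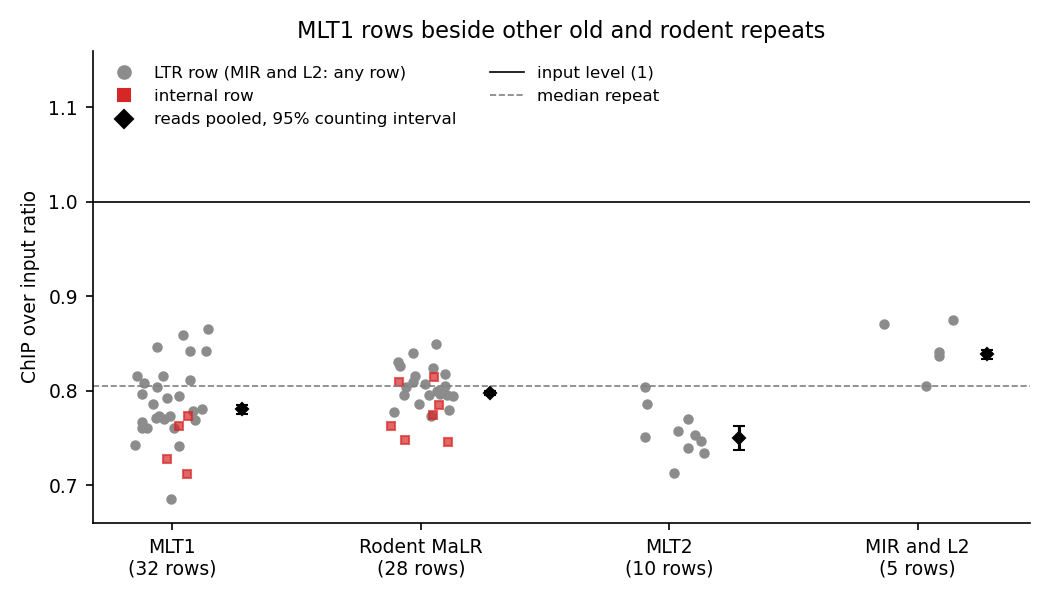
Ratio of H3.3S31ph ChIP over input for the rows of MLT1, rodent MaLR, MLT2, and MIR and L2, with LTR rows in grey (for MIR and L2, any row) and internal rows in red; black diamonds are pooled reads with 95% intervals of counting error. Pooled MLT1 lies at 0.781, between MLT2 at 0.750 and rodent MaLR at 0.797, and all rows shown lie below the input level.

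Over all members the lanes agreed within counting error. ChIP reads of the 32 members split between lanes at a chi-square of 21.0 for 31 degrees of freedom, and input reads at 32.6 for 31. Log2 ratios differed between lanes by a median of 0.044 and by at most 0.27, in MLT1H-int, the 1 exception named above. An interval below 1 was found for 31 members in lane 1, where MLT1M included 1, and for 32 in lane 2. Relative to the median repeat of the same lane, 6 members lay above it in both lanes, 18 below it in both and 8 on different sides. Shares of all analysed repeat types by lane were not computed, so these lane counts do not set the members apart from other repeats. Spearman's rho between lanes was 0.472 across the 32 members and 0.468 across the 14 letters, so the order of members was only in part shared by the lanes.

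By the authors' deposited table, which gives a log2 ratio per lane on the authors' own scale, the members' log2 ratios ran from -0.36 to -0.036 in lane 1 and from -0.46 to -0.022 in lane 2. The conservative value in the authors' deposited table, which is the bound nearer 0 or 0 itself where the interval spans 0, was below 0 for 27 members in lane 1 and 28 in lane 2, against 40.8% and 40.2% of all 952 repeat types. It was above 0 for 0 members in either lane in the authors' deposited table, against 13.3% and 12.9% of repeat types. It was below 0 in both lanes for 25 members. The 952 repeat types include those under the minimum of input reads used for analysis, while all members met it. A repeat with fewer reads has a wider interval, so these shares do not set the members apart from other repeats. Shares of the deposited value among the analysed repeat types were not computed.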

How the data were processed

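Chromatin, fixed in 0.4% formaldehyde (10 min) and sheared to about 300 bp, was immunoprecipitated with 10 µg of antibody and sequenced as 50 bp single reads after 10 amplification cycles, per the labels' protocols. No molecular identifiers are described, so reads cannot be taken as independent molecules, and intervals cover counting error only. Bowtie 1.0.0 and the build mm9 are named in the submitters' processing notes. The assignment of reads to repeat types, the handling of a read that matches several subtypes and any removal of duplicates are not given in the sources used here. Related MLT1 subtypes may therefore share reads. The deposited tables, 1 per lane, give raw counts of ChIP and input reads for every repeat type, summing to 6204712 and 4467116 in lane 1 and 6030765 and 4389635 in lane 2. They also hold the authors' log2 ratio with bounds. Checked row by row, the deposited log2 ratio is that of the counts with 0.5 added, less 0.31 in lane 1 and 0.29 in lane 2, to within 0.00053.

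Counts were summed over lanes and scaled by the table totals. Single ratios have exact conditional (Clopper-Pearson) 95% intervals, and factors between groups have 95% intervals of the log ratio from the 4 counts (Python 3.11.15, scipy 1.17.1). The median repeat is the median of all repeats with at least 100 input reads, taken as fixed. The computation was tested on simulated data. Chi-square values compare the reads of these 2 libraries, and no p-value was computed. Members named with values are all internal rows, the 6 most abundant by input reads, and the 6 highest and 6 lowest ratios, 19 rows in all. Others appear through their letter, or were named after their values were seen. Members and lists were chosen with earlier results of these data known. The alternatives were each lane, other read minimums, 1 read added, other scales, medians of rows, and the removal of MLT1A0.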

Additional observations from a re-analysis of the deposited data

How the results depend on the processing

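The scale between the libraries moved the values against input most, and leaves all factors between groups as they are. The median log2 ratio of the members was -0.37 with table totals, -0.20 on the scale of the deposited log2 ratios, -0.16 without the 5 most abundant repeats by total reads, -0.43 without the 5 with most input reads (chosen after seeing the data) and -0.053 with the median repeat set to 1. Members below the input level numbered 32, 29, 26, 32 and 11 on these scales. Of the 704 analysed repeat types, 79.5% lay below it with table totals and 19.2% with the median repeat set to 1. Their shares on the other scales were not computed, so the counts there do not set the members apart from other repeats. With the median repeat set to 1, 9 members turned above 1, of which the 6 named by rule were MLT1N2 (1.075), MLT1J (1.067), MLT1E (1.051), MLT1L (1.046), MLT1G3 (1.046) and MLT1I (1.014). Of the 19 members named by rule, 11 further values kept their direction with an interval that came to include 1, under the scalings only. Members below the median repeat numbered 11, but 7 in lane 1, and 17 under a minimum of 1000 input reads, where the median repeat itself is higher. Those 1.1-fold below it numbered 3, but 6 in lane 2, 9 under the looser fold tried and 0 at 1.2-fold. Among all analysed repeats 19.2% lay below the median repeat and 14.8% lay at least 1.1-fold below it. With at least 1000 input reads, 31.3% of 406 repeat types lay below. Shares by lane and at the other folds were not computed, so those counts do not set the members apart. Chi-square per degree of freedom was 4.71 over all members, 2.31 in lane 1 and 3.38 in lane 2. For the same spread of ratios this value falls with fewer reads, so single lanes are not comparable with their sum. The cause of the difference between lanes was not tested. LTR over internal rows was 1.038 in lane 1, with an interval that included 1. Medians of rows in place of pooled reads gave 1.048 for letters I to N over A to D, 0.972 against the rodent MaLR and 0.922 against MIR and L2, in the same direction. The other factors kept direction and side of 1 under all alternatives run for them. MST has no rows, so its planned factor was not run. No paired analysis was possible because each group holds 1 sample. Depth limits the internal rows (753 to 1370 input reads) and MLT1M (467).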
